A study of Mus musculus with 6 samples.

Results

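Conjugating enzymes join a water-soluble group to steroids, bile acids, bilirubin, drugs and reactive metabolites, and liver is the organ best known for them. UDP-glucuronosyltransferases (Ugt genes) transfer glucuronic acid from a UDP-sugar, glutathione S-transferases (Gst genes) transfer glutathione, and cytosolic sulfotransferases (Sult genes) transfer sulfate from the donor PAPS. Several of these genes are known targets of the xenobiotic receptors CAR, PXR and AhR or of the stress factor NRF2, and some Sult genes of mouse liver are known to be far more active in females.

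The genes described here are those with a symbol beginning with Ugt1, Ugt2, Ugt3, Gsta, Gstm, Gstp, Gstt, Gstk, Gsto, Gstz or Sult on a probe set annotated to exactly 1 symbol, with 1 probe set per gene, that of the highest mean over the 6 arrays. There were 45 of them (10 Ugt, 19 Gst and 16 Sult) among 19938 genes with such a probe set. The table has a floor at a log2 signal of 5, and 12 of the 45 stood at it on all 6 arrays, so 33 could be compared (10 Ugt, 17 Gst, 6 Sult). No probe set of the Ugt1 family had a single symbol, so none of the 45 belongs to it.

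RNA of whole liver from 3 TLR3-/- mice and from 3 TLR3wt mice was hybridised, 1 array per mouse. All mice were untreated and 3 months old, bred in house under SPF conditions, and the design text gives C57Bl/6 as the strain. TLR3 is an endosomal receptor of double-stranded RNA. How the allele was made and whether the groups shared litters are not given in the sources used here, and the sex is not labelled.

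Each array had 15081 to 15226 probe sets above the floor, and arrays correlated at 0.984 to 0.991 within groups and 0.980 to 0.988 between them. Tlr3 itself was listed at 5 in all 6 livers, so its probe set is no check of the genotype labels. All 7 hepatocyte markers with a probe set, among them Apoa1 and Ttr, were above the floor. Of 7 cholangiocyte markers 5 were at 5 on all arrays, Krt19 and Krt7 included, and so were all neutrophil and adipocyte markers. Signal above 5 was present in all 6 livers for the Y-linked Uty, Kdm5d and Eif2s3y, and in 0 for Xist. TLR3wt replicate 3 stood apart from the other livers in genes outside the conjugating enzymes: 19 acute-phase genes averaged -0.84, -0.60 and -0.62 in TLR3-/- livers, against -0.45, -0.27 and 0.73 in TLR3wt livers (mean log2 signal relative to the TLR3wt mean).

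No conjugating enzyme gene passed the test between TLR3-/- and TLR3wt livers. With limma's moderated test over 16639 probe sets and an adjusted p under 0.05, 0 of the 33 passed, where 0.186% of all tested probe sets did (31) and 0.0870% of the 10347 tested genes (9). At limma's unadjusted p under 0.05, 6 of the 33 were higher in TLR3-/- livers, against 10.1% of all tested genes, and 2 were lower, against 5.56%. The values of the 3 TLR3-/- livers all lay above those of the 3 TLR3wt livers for 9 of the 33, against 15.1% of tested genes, and all below for 2, against 7.62%. With arrays centred on their medians these counts were 5 higher, against 10.5% of genes, and 3 lower, against 13.0%. Lower without overlap were 7 when TLR3-/- replicate 1 was left out, against 11.9% of genes, and 6 when TLR3wt replicate 3 was, against 11.3%. The median log2 difference, TLR3-/- minus TLR3wt, was 0.04 over the 33 and 0.03 over all tested genes. By family the median was 0.38 for Sult, -0.05 for Gst and 0.05 for Ugt genes.

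**Figure D1:**
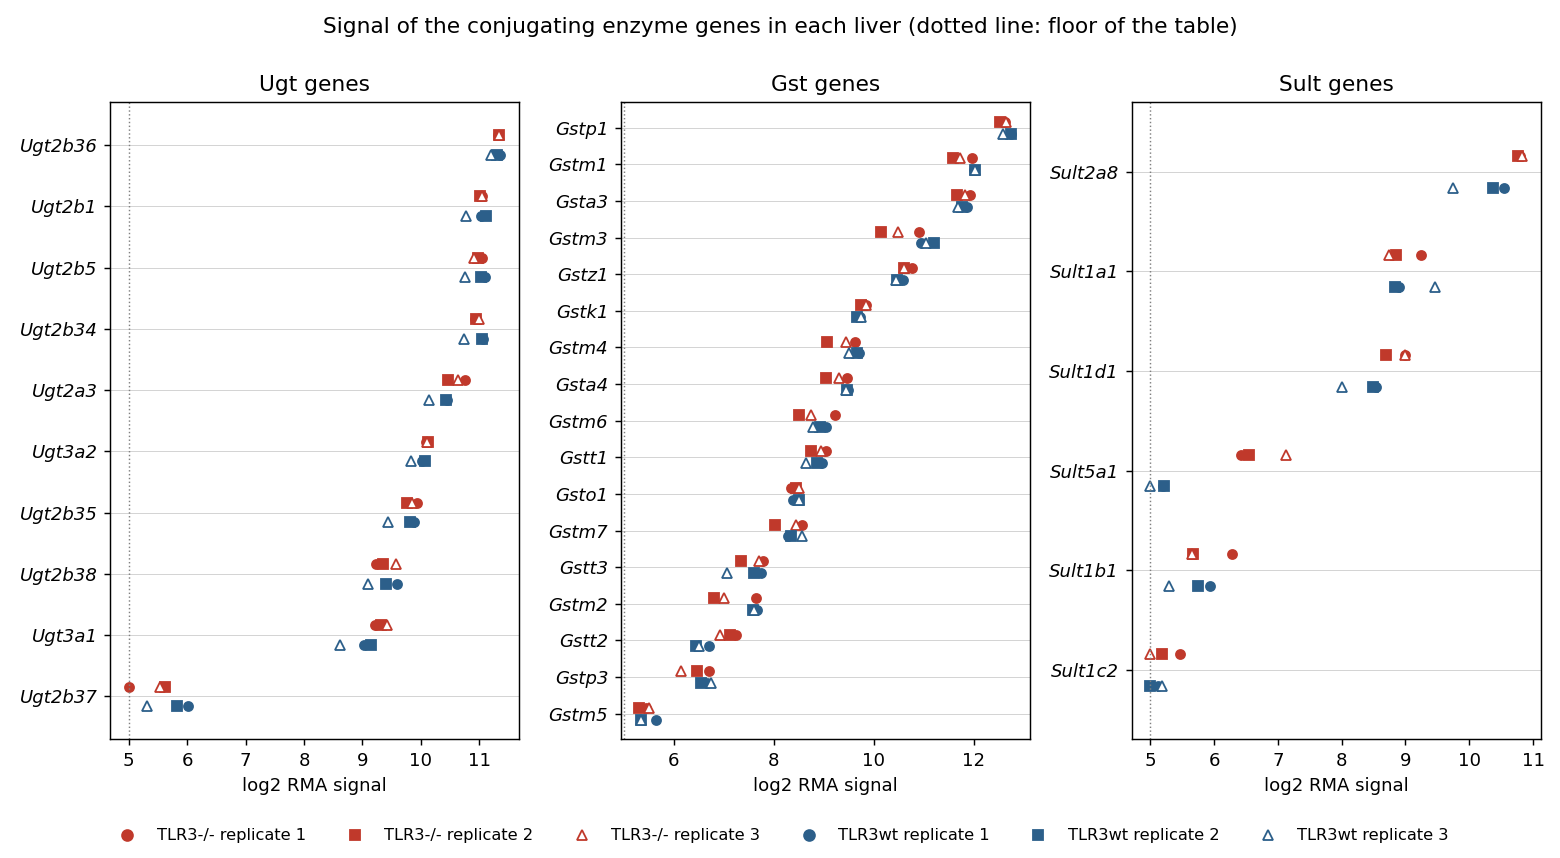
Log2 RMA signal (horizontal axis) of each of the 33 conjugating enzyme genes above the floor, in rows by family, with 1 symbol per liver (red for TLR3-/-, blue for TLR3wt, shape for the replicate). Sult5a1 is clear of the floor of 5 in the 3 TLR3-/- livers and within 0.22 of it in the 3 TLR3wt livers, and the open blue triangle of TLR3wt replicate 3 is the lowest TLR3wt value in all 10 Ugt rows.

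**Figure D2:**
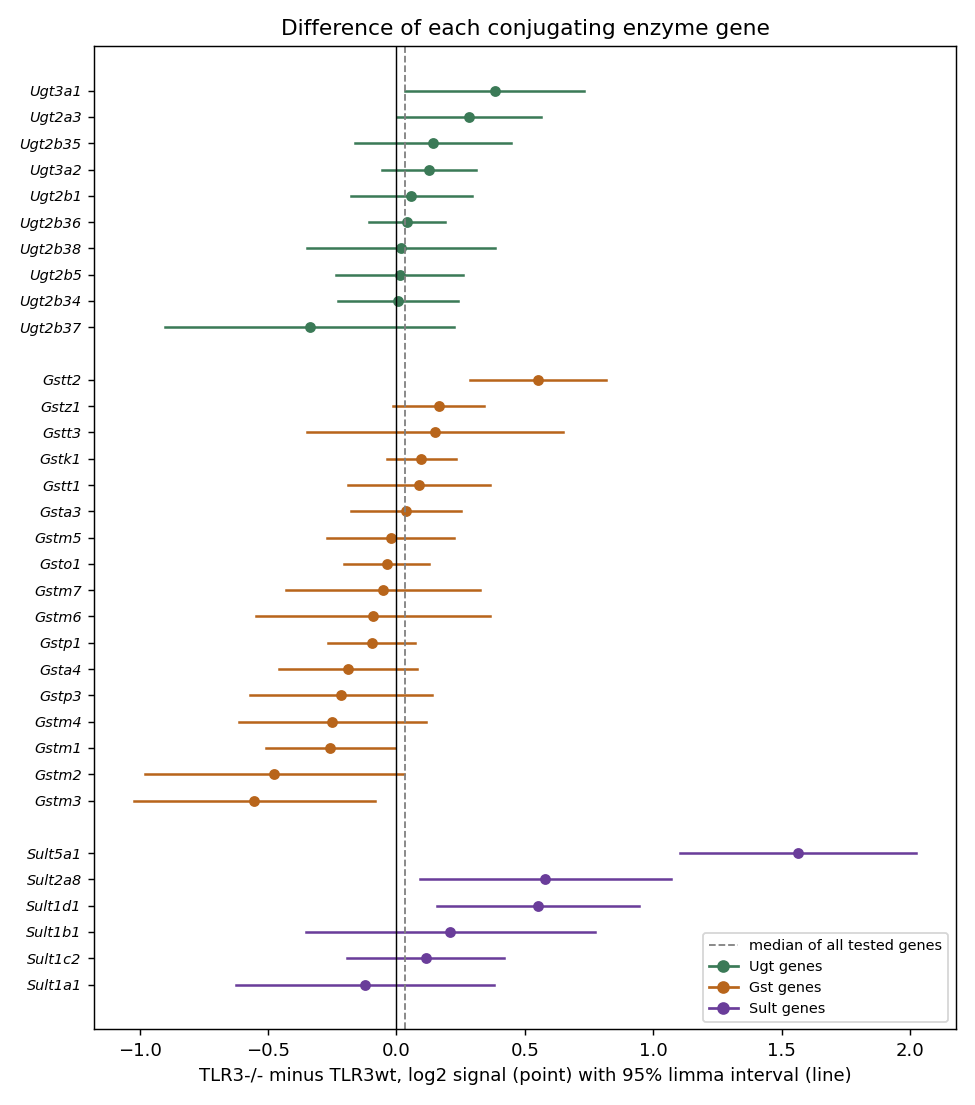
Difference TLR3-/- minus TLR3wt on the log2 scale (points) with the 95% interval of limma (lines, n = 3 livers each) for the 33 genes, grouped by family, with the median of all tested genes as a dashed line. Sult5a1 at 1.56 lies apart from the other genes, which fall between -0.55 and 0.58.

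The sulfotransferases held the largest differences. Sult5a1 had log2 signals of 6.43, 6.55 and 7.13 in TLR3-/- livers, against 5.19, 5.22 and 5 in TLR3wt livers. The groups were far apart, and the TLR3wt livers were at or just above the floor. The means were 6.70 ± 0.38 in TLR3-/- and 5.14 ± 0.12 in TLR3wt livers (SD, n = 3 each), a difference of 1.56 (95% interval 1.10 to 2.02), or 2.96-fold. With 1 TLR3wt value at the floor this fold may be understated. Its limma adjusted p was 0.0633, short of the threshold. It ranged from 0.0516 to 0.442 over the alternatives run, except that it was 0.0254 with only probe sets above the floor on at least 3 arrays. Sult5a1 and Tlr3 both lie on chromosome 8, and the distance between them was not examined. Strain differences linked to the Tlr3 allele cannot be told apart here from the genotype itself.

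Sult2a8 and Sult1d1 were also higher in all 3 TLR3-/- livers than in any TLR3wt liver. Sult2a8, a bile acid sulfotransferase of mouse liver, had 10.80, 10.77 and 10.83 in TLR3-/- livers, against 10.54, 10.37 and 9.74 in TLR3wt livers. The TLR3-/- livers lay close together, and TLR3wt replicate 3 was well below the other TLR3wt livers. The difference was 0.58 (interval 0.09 to 1.07, limma adjusted p = 0.282), and 0.34 without TLR3wt replicate 3. Sult1d1, which in mouse sulfates dopamine and other phenolic amines, had 8.99, 8.70 and 8.999 in TLR3-/- livers, against 8.53, 8.49 and 8.01 in TLR3wt livers, again with TLR3wt replicate 3 the lowest. Its difference was 0.55 (interval 0.16 to 0.95, limma adjusted p = 0.223), and 0.39 without TLR3wt replicate 3.

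The other measured sulfotransferase genes overlapped between groups. Sult1a1, the phenol sulfotransferase, had 9.25, 8.85 and 8.74 in TLR3-/- livers, against 8.90, 8.84 and 9.46 in TLR3wt livers. Here TLR3wt replicate 3 was the highest of all livers, and the difference of -0.12 became 0.07 without it. Sult1b1, which sulfates thyroid hormones, had a difference of 0.21 and was highest in TLR3-/- replicate 1 (6.28, against 5.67 and 5.65 in TLR3-/- replicates 2 and 3). Without that liver its difference was close to 0, and without TLR3wt replicate 3 it was 0.02. Sult1c2 was near the floor, with 5.47, 5.18 and 5 in TLR3-/- livers, against 5.12, 5 and 5.19 in TLR3wt livers.

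Per liver, the 6 measured Sult genes averaged 0.61, 0.37 and 0.47 in TLR3-/- livers, against 0.12, 0.02 and -0.14 in TLR3wt livers (log2, relative to the TLR3wt mean). Without Sult5a1 the averages were 0.48, 0.16 and 0.16 in TLR3-/- livers, against 0.13, 0.01 and -0.14 in TLR3wt livers. The groups then barely missed overlapping, with the nearest livers at 0.157 (TLR3-/- replicate 2) and 0.129 (TLR3wt replicate 1). That gap was smaller than the median difference of 0.033 over all tested genes. The family median of 0.38 was 0.25 without TLR3wt replicate 3.

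The other 10 Sult genes were at 5 on all 6 arrays. Among them were Sult1e1, the estrogen sulfotransferase, Sult2a3 and Sult2a6 of the hydroxysteroid group, Sult3a1 and Sult3a2 of the amine sulfotransferases, and Sult2b1, which sulfates cholesterol and pregnenolone. The remaining ones were Sult1c1, Sult4a1, known from brain, Sult6b1 and Sult6b2. In addition, 2 probe sets annotated to several Sult2a symbols at once were at 5 in all livers. Sult3a, Sult1e1 and several Sult2a transcripts are known to be predominant in female mouse liver. That is not said of Sult2a8, which was above the floor in all 6 livers.

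The promoter windows of Sult5a1 and Sult1d1 are shown as examples of sulfotransferase genes that were higher in TLR3-/- livers without overlap. Each holds 250 bases before the annotated start (RefSeq, GRCm38.p6), 5′ to 3′ on the gene's strand. Capitals mark matches, on either strand, to 4 motifs searched: the antioxidant response element core TGACNNNGC, through which NRF2 acts, the xenobiotic response element core GCGTG, through which AhR acts, the site core GTTAAT of the hepatocyte factor HNF1, and the TATA box TATAAA.
Sult5a1 (chr8:123158281-123158530, minus strand): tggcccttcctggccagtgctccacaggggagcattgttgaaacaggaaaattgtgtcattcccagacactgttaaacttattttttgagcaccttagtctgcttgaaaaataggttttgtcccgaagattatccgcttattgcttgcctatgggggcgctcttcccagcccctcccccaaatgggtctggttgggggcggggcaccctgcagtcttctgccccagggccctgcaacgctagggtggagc
Sult1d1 (chr5:87569007-87569256, minus strand): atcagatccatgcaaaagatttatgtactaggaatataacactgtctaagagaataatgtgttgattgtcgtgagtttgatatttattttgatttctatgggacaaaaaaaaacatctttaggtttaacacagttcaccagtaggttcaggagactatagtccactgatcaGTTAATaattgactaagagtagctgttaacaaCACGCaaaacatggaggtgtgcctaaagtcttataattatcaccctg
The Sult1d1 window holds the HNF1 site core at 79 to 74 bases before the start and, on the opposite strand, the xenobiotic response element core at 47 to 43. The Sult5a1 window holds none of the 4 strings.

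Among the glutathione transferases, the mu class (Gstm) genes had lower means in TLR3-/- livers and Gstt2 a higher one. All 7 Gstm genes lay lower on average (median log2 difference -0.25, range -0.55 to -0.02), as did 4047 of the 10347 tested genes. Of the 7, 2 (Gstm1 and Gstm3) were lower without overlap between groups, against 7.62% of tested genes. Without TLR3-/- replicate 2, 4 of the 7 had lower means and 3 had higher ones. Gstm5 had a higher mean without TLR3wt replicate 1, and Gstm7 without TLR3wt replicate 3. Gstm3 had 10.91, 10.15 and 10.49 in TLR3-/- livers, against 10.94, 11.21 and 11.05 in TLR3wt livers. TLR3-/- replicate 1 was just below the lowest TLR3wt liver, and the other TLR3-/- livers were clearly lower. The difference was -0.55 (interval -1.02 to -0.08, limma adjusted p = 0.283) and -0.37 without TLR3-/- replicate 2. A second probe set annotated to Gstm3 alone, of lower mean signal, had a difference of -1.02 (limma adjusted p = 0.232), so its size depended on the probe set.

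Gstm1 had 11.98, 11.58 and 11.73 in TLR3-/- livers, against 12.01, 12.03 and 12.03 in TLR3wt livers. The TLR3wt livers were almost equal, and TLR3-/- replicate 1 was again close to them. The difference was -0.26 (interval -0.51 to -0.01, limma adjusted p = 0.336), and -0.17 without TLR3-/- replicate 2. Gstm2 had 7.63, 6.80 and 6.996 in TLR3-/- livers, against 7.66, 7.58 and 7.61 in TLR3wt livers, with TLR3-/- replicate 1 inside the TLR3wt range. Its difference was -0.48 (interval -0.98 to 0.03, limma adjusted p = 0.367), -0.30 when TLR3-/- replicate 2 was left out and -0.72 when replicate 1 of that group was.

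The other 4 mu class genes had smaller differences with overlapping groups. Gstm4 had a difference of -0.25, Gstm6 of -0.09, Gstm7 of -0.05 and Gstm5, near the floor, of -0.02. Without TLR3-/- replicate 2 that of Gstm4 was -0.09, and Gstm5, Gstm6 and Gstm7 had 0.03, 0.07 and 0.11. In all 7 genes TLR3-/- replicate 2 was the lowest TLR3-/- liver, and in 6 of them TLR3-/- replicate 1 was the highest. The 7 genes averaged 0.04, -0.52 and -0.25 in TLR3-/- livers, against 0.03, 0.00 and -0.03 in TLR3wt livers. The TLR3-/- group thus spanned 1 liver at the TLR3wt level and 2 below it. The mu class genes are close relatives in 1 cluster on chromosome 3, so signal from a neighbour on a gene's probes was not tested.

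**Figure D3:**
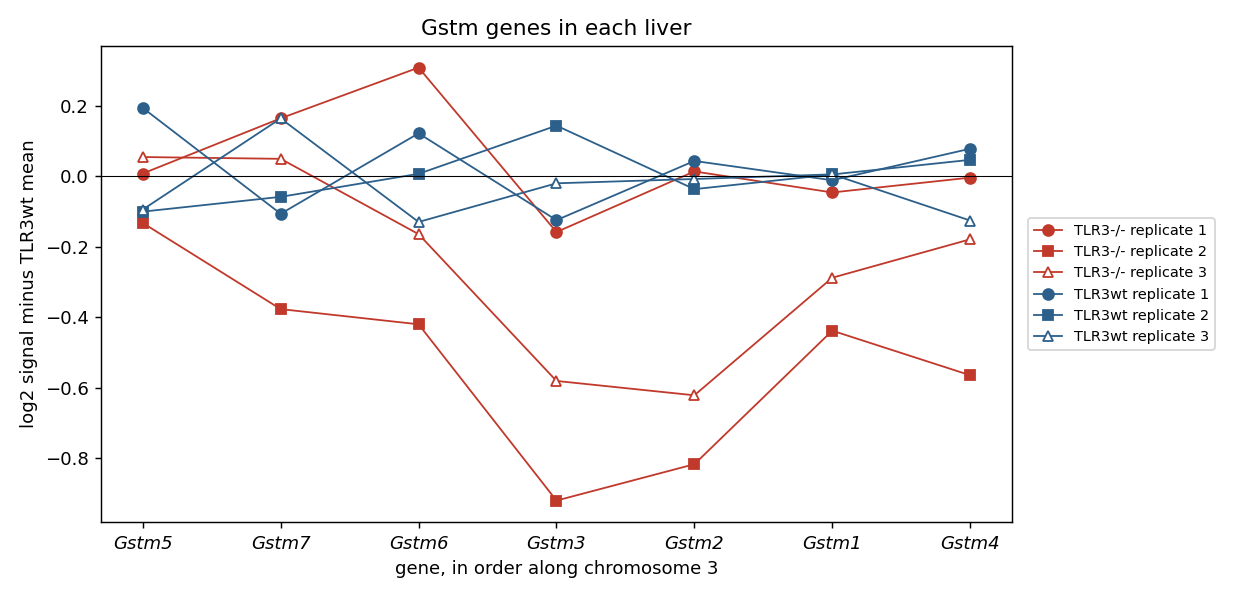
Log2 signal of the 7 Gstm genes minus each gene's TLR3wt mean (vertical axis), 1 line per liver, with the genes in their order along chromosome 3. TLR3-/- replicate 2 is lowest among the TLR3-/- livers at each gene, and TLR3-/- replicate 1 lies near the TLR3wt livers except at Gstm6, where it is above them.

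In the alpha class, TLR3-/- replicate 2 was again the lowest TLR3-/- liver. Gsta4, which conjugates aldehydes from lipid peroxidation, had 9.47, 9.04 and 9.30 in TLR3-/- livers, against 9.48, 9.46 and 9.43 in TLR3wt livers (difference -0.19, limma adjusted p = 0.490, and -0.08 without TLR3-/- replicate 2). Gsta3, which in mouse protects against aflatoxin, had a difference of 0.04 (interval -0.18 to 0.25). A further 4 probe sets were each annotated to the same 4 alpha class symbols and stand for no single gene. One of them (10587323) had 9.40, 8.57 and 8.96 in TLR3-/- livers, against 9.20, 9.30 and 9.34 in TLR3wt livers. Their differences were -0.31 to -0.24, with TLR3-/- replicate 2 the lowest and TLR3-/- replicate 1 above the TLR3wt livers.

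The theta class gene Gstt2 had the smallest p among the Gst genes. Its signals were 7.25, 7.13 and 6.92 in TLR3-/- livers, against 6.70, 6.44 and 6.51 in TLR3wt livers. All TLR3-/- livers were above all TLR3wt livers, and the difference was 0.55 (interval 0.28 to 0.82, limma adjusted p = 0.141), with 0.48 to 0.64 when any 1 liver was left out. Gstt1, which acts on small halogenated compounds, and Gstt3 had differences of 0.09 and 0.15 with overlapping groups. Without TLR3wt replicate 3 the difference of Gstt1 was 0.003 and that of Gstt3 was -0.06. Gstt4 was at 5 on all arrays.

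The remaining Gst classes had smaller differences. Gstz1, an isomerase of tyrosine breakdown, had 10.77, 10.60 and 10.61 in TLR3-/- livers, against 10.58, 10.46 and 10.44 in TLR3wt livers. The groups did not overlap, at a difference of 0.16 (limma adjusted p = 0.370). Gstk1, the mitochondrial and peroxisomal class, was likewise higher without overlap by 0.10 (interval -0.04 to 0.23, limma adjusted p = 0.482). Its nearest livers were at 9.744 (TLR3-/-) and 9.736 (TLR3wt). For both genes the gap between the nearest livers of the groups was smaller than the median difference of 0.033 over all tested genes. Gstp1, the pi class gene known to be more active in male mouse liver, had a difference of -0.10 (interval -0.26 to 0.07), and Gstp3 of -0.22, which was -0.07 without TLR3-/- replicate 3. Gsto1, known for reducing dehydroascorbate, had a difference of -0.04, and Gsto2 was at 5 on all arrays. Over the 10 Gst genes outside the mu class the median difference was 0.06, and over all 17 the median of -0.05 became 0.03 without TLR3-/- replicate 2.

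Promoter windows of 3 Gst genes are shown, of Gstm1 and Gstm3 because they were lower without overlap, and of Gsta3 because it holds an antioxidant response element core. Capitals again mark the motif matches, on either strand.
Gstm1 (chr3:108017974-108018223, minus strand): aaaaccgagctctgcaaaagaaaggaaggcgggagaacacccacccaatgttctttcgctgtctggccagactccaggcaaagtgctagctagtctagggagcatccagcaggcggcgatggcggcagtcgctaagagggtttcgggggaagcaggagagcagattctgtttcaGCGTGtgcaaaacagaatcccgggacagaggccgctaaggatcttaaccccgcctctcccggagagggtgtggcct
Gstm3 (chr3:107969175-107969424, minus strand): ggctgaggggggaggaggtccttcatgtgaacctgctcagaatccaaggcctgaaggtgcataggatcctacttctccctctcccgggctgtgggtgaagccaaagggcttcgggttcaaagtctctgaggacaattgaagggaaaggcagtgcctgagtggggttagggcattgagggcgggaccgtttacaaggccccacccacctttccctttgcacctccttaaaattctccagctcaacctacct
Gsta3 (chr1:21240335-21240584, plus strand): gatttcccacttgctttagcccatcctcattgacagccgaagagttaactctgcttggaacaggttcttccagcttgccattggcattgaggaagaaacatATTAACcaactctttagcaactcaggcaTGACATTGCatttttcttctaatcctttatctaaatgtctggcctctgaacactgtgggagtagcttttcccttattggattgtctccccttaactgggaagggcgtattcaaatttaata
The Gstm1 window, that of the more upstream of 2 annotated starts, holds the xenobiotic response element core at 76 to 72 bases before the start. The Gstm3 window holds none of the 4 strings. The Gsta3 window holds the antioxidant response element core at 121 to 113 and an HNF1 site core, on the opposite strand, at 149 to 144.

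Of the 33 genes, 30 had 39 such windows in the RefSeq table. The antioxidant response element core stood in the windows of 3 genes (Gsta3, Gstm5 and Gstm7), in 7.69% of the 39 windows against 10.2% of all 32851. The xenobiotic response element core stood in those of 6 genes (17.9% against 28.2% of windows), the HNF1 site core in those of 5 (12.8% against 6.43%) and the TATA box in those of 4 (12.8% against 12.4%). In Gstm5 the antioxidant and xenobiotic cores overlap.

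The glucuronosyltransferase genes differed little between the groups. Of 10, 9 had a higher mean in TLR3-/- livers, as had 6300 of the 10347 tested genes, but the median difference was 0.05. With arrays centred on their medians 6 were higher and 4 lower. Without TLR3wt replicate 3 the median was -0.02, with 4 higher and 6 lower. In each of the 10 genes TLR3wt replicate 3 was the lowest TLR3wt liver. The 10 genes averaged 0.03, 0.07 and 0.12 in TLR3-/- livers, against 0.13, 0.10 and -0.23 in TLR3wt livers.

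Ugt3a1 and Ugt2a3 had the largest higher values. Ugt3a1, whose human counterpart uses UDP-N-acetylglucosamine in place of UDP-glucuronic acid, had 9.21, 9.31 and 9.42 in TLR3-/- livers, against 9.02, 9.15 and 8.62 in TLR3wt livers. The groups did not overlap. The difference was 0.38 (interval 0.03 to 0.73, limma adjusted p = 0.307), and 0.23 without TLR3wt replicate 3. Ugt2a3 had 10.76, 10.46 and 10.64 in TLR3-/- livers, against 10.45, 10.42 and 10.15 in TLR3wt livers, with TLR3-/- replicate 2 just above the TLR3wt livers. Its difference was 0.28 (limma adjusted p = 0.342), and 0.18 without TLR3wt replicate 3. Ugt3a2 had 10.09, 10.13 and 10.10 in TLR3-/- livers, against 10.02, 10.08 and 9.84 in TLR3wt livers. The difference was 0.13 without overlap (limma adjusted p = 0.495), and 0.06 without TLR3wt replicate 3. For Ugt2a3 and Ugt3a2 the gap between the nearest livers of the groups was smaller than the median difference of 0.033 over all tested genes.

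The Ugt2b genes, which glucuronidate steroids, bile acids and drugs, overlapped between groups without exception. Ugt2b36 had 11.32, 11.33 and 11.33 in TLR3-/- livers, against 11.36, 11.30 and 11.19 in TLR3wt livers, a difference of 0.04 (interval -0.11 to 0.19). Ugt2b1, Ugt2b5 and Ugt2b34 had differences of 0.06, 0.01 and 0.01, with intervals that reached no further than 0.24 below and 0.29 above 0. Without TLR3wt replicate 3 these 4 genes had differences of -0.10 to -0.01. Ugt2b35 had a difference of 0.14 and Ugt2b38 of 0.02, and without TLR3wt replicate 3 they had 0.008 and -0.12.

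Ugt2b37 was the 1 Ugt gene with a lower mean in TLR3-/- livers. It had 5, 5.62 and 5.53 in TLR3-/- livers, against 6.01, 5.83 and 5.32 in TLR3wt livers, near the floor and overlapping (difference -0.34, interval -0.90 to 0.22, limma adjusted p = 0.560). The difference was -0.15 without TLR3-/- replicate 1, -0.20 without TLR3wt replicate 1 and -0.54 without TLR3wt replicate 3. Its nearest relative among the Ugt2b promoters was that of Ugt2b38, at 84.8% identity (224 identical bases in an alignment of 264 positions), while the other pairs of the 7 Ugt2b genes ranged from 45.6% to 81.5%. The pair is shown to let the likeness be seen, with the bases that have no identical partner in capitals (250 bases before the start, RefSeq, GRCm38.p6).
Ugt2b37 (chr5:87254789-87255038, minus strand): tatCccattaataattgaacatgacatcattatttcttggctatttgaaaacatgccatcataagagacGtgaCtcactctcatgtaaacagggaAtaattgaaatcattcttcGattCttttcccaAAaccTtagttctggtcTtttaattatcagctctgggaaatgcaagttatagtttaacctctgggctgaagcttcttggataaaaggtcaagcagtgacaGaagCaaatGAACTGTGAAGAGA
Ugt2b38 (chr5:87424204-87424453, minus strand): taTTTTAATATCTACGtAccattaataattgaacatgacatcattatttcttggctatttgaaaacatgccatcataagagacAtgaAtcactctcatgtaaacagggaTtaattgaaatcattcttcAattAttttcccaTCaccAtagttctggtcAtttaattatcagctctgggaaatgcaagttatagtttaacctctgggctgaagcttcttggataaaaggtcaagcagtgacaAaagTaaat
Transcripts of such relatives may share probe sequence, and how far each Ugt2b probe set reads its neighbours was not tested.

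The Ugt1 locus joins alternative first exons to shared later exons, and the probe set that covers it (10348354) was annotated to 8 Ugt1a symbols at once. It had 9.93, 9.86 and 9.78 in TLR3-/- livers, against 9.86, 9.86 and 9.77 in TLR3wt livers. That is a difference of 0.03 with overlapping groups, and it speaks for the locus as a whole and for no single gene. For the 2 probe sets annotated to Ugt3a1 and Ugt3a2 together, the differences were 0.14 and 0.16 with overlapping groups, and TLR3wt replicate 3 was again the lowest liver.

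Around these enzymes, 13 lists of related genes held 175 measured genes, and 0 of them passed limma's adjusted threshold in either direction. At an unadjusted p under 0.05, 20 were higher in TLR3-/- livers (11.4%, against 10.1% of all tested genes) and 19 lower (10.9%, against 5.56%). Among 7 genes of UDP-glucuronic acid supply (median difference 0.10), the nucleotide sugar transporter Slc35d2 had 8.06, 8.03 and 7.81 in TLR3-/- livers, against 7.46, 7.27 and 7.48 in TLR3wt livers. Ugdh, the dehydrogenase that makes UDP-glucuronic acid, had 10.71, 10.56 and 10.55 in TLR3-/- livers, against 10.78, 10.92 and 10.97 in TLR3wt livers. Slc35d2 was thus higher (limma adjusted p = 0.112) and Ugdh lower (0.203) without overlap, and Pgm2 was lower by 0.28.

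Sulfate and glutathione supply showed medians close to that of all genes. Among 14 genes of PAPS supply and sulfate handling (median 0.02), those with the smallest p were the sulfite oxidase gene Suox (0.28), the taurine synthesis gene Csad (-0.52) and the cysteine dioxygenase gene Cdo1 (0.17). Among 17 genes of glutathione synthesis and turnover (median 0.01), Nat8, which acetylates cysteine conjugates, had a difference of 0.71, Cbs of -0.23 and Mat1a of 0.18. Nat8 was at 5 in TLR3wt replicate 3, and its difference was 0.49 without that liver. The 6 measured microsomal transferases and relatives had a median of -0.01, with Mgst3 at -0.23, Clic4 at -0.13 and Mgst1 at 0.03.

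Other enzymes that conjugate or hydrolyse had a median of 0.09 over 22 genes. The arylamine acetyltransferase gene Nat2 had a difference of 0.50, the carboxylesterase gene Ces1e of 0.50 and the arsenic methyltransferase gene As3mt of -0.41. Nat2 was near the floor, with 5.73, 5.56 and 5.44 in TLR3-/- livers, against 5.24, 5 and 5 in TLR3wt livers. For the 6 deconjugation genes, which release what conjugation has joined, the median was -0.03, with Gusb at -0.17, Arsa at 0.09 and Sumf1 at -0.05.

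Receptors that control these enzymes were mixed. Over 23 xenobiotic receptors and regulators the median was 0.03. Nr1i3, which encodes CAR, had 9.35, 9.56 and 9.29 in TLR3-/- livers, against 8.75, 8.94 and 8.74 in TLR3wt livers, a difference of 0.59 (limma adjusted p = 0.111). Ahr, the gene of AhR, had a difference of 0.37, also without overlap, and the hepatocyte factor gene Foxa3 one of -0.75. Over 17 targets of CAR, PXR and AhR the median was 0.14, and differences ranged from -1.20 to 0.94. Of these targets 11 had a higher and 6 a lower mean, where 6300 of the 10347 tested genes had a higher one. Those with the smallest p were Cyp3a25 at 0.39 (limma adjusted p = 0.0929), Cyp2c54 at 0.65 and Cyp2c37 at 0.94. Without TLR3wt replicate 3 the last pair had 0.46 and 0.64. The 17 targets averaged 0.14, -0.01 and 0.17 in TLR3-/- livers, against 0.10, 0.09 and -0.19 in TLR3wt livers. The groups overlapped, and TLR3wt replicate 3 was the lowest liver.

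Over 21 NRF2 targets the median was -0.05, with 15 lower and 6 higher means, and differences ranged from -0.66 to 0.90. Of the 10347 tested genes, 4047 had a lower mean. The exporter gene Abcc4, near the floor in all livers, had a difference of -0.31. The heme oxygenase gene Hmox1 had one of -0.66 and Trp53inp1, better known as a p53-induced gene, one of -0.55. The 21 targets averaged -0.01, -0.14 and -0.13 in TLR3-/- livers, against -0.03, 0.02 and 0.01 in TLR3wt livers. TLR3-/- replicate 1 was at the TLR3wt level, as it was for the Gstm genes.

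In sex-biased genes TLR3wt replicate 3 stood apart. Male-predominant genes (19, of which Ugt2b38 is 1) averaged 0.05, 0.25 and 0.34 in TLR3-/- livers, against 0.16, 0.16 and -0.31 in TLR3wt livers. Of these, Cyp7b1, at 8.11 in TLR3wt replicate 3 and 10.1 or more elsewhere, had a difference of 1.54 (0.82 without that liver), Cyp2u1 of 0.68 and Keg1 of -0.43. Female-predominant genes (8 measured, 6 at 5) averaged -0.24, -0.37 and -0.45 in TLR3-/- livers, against -0.23, -0.22 and 0.45 in TLR3wt livers. Cyp17a1 had 5.24, 5.33 and 5.39 in TLR3-/- livers, against 5.99, 5.86 and 8.05 in TLR3wt livers, a difference of -1.31 that was -0.60 without TLR3wt replicate 3. Abcd2 was highest in the same TLR3wt liver, at 8.03, and Slc16a5 was above 5 there alone. Pericentral genes (12, median 0.16) averaged 0.13, 0.28 and 0.23 in TLR3-/- livers, against 0.09, 0.11 and -0.20 in TLR3wt livers. Among them Tbx3 had a difference of 0.74, Cyp2e1 of 0.25 and Lect2 of 0.43, the last pair 0.14 and 0.24 without TLR3wt replicate 3. Periportal genes averaged -0.12, -0.25 and -0.05 in TLR3-/- livers, against -0.03, 0.05 and -0.02 in TLR3wt livers (12 genes, median -0.01), with Pigr at 0.25, Ctsc at -0.73 and Pck1 at -0.61.

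Markers of other cells differed as well. All 11 markers of Kupffer cells and macrophages were lower in TLR3-/- livers without overlap, against 7.62% of tested genes, with a median of -0.88. They averaged -0.76, -1.23 and -0.63 in TLR3-/- livers, against -0.25, 0.20 and 0.05 in TLR3wt livers, and 0 of them passed limma's adjusted threshold. Timd4, Adgre1 and Marco had differences of -0.90, -1.00 and -1.08. In whole liver, fewer cells of a type and less RNA per cell cannot be told apart. TLR3-/- replicate 2 was the lowest liver both for these markers and for the Gstm genes. TLR3-/- replicate 1, however, averaged -0.76 for the markers and 0.04 for the Gstm genes. Among all 17 measured Gst genes, TLR3-/- replicate 2 was the lowest TLR3-/- liver in 14. Hepatocyte markers had a median of -0.01, stellate cell markers of 0.06, endothelial markers of -0.10, the 2 measured cholangiocyte markers of -0.12 and the 2 erythroid markers of -0.28. Of 9 T, NK and B cell markers 1 was above the floor, with a difference of -0.02. The part of these cells, of the acute-phase genes and of sex-biased genes in the conjugating enzyme values was not tested.

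**Figure D4:**
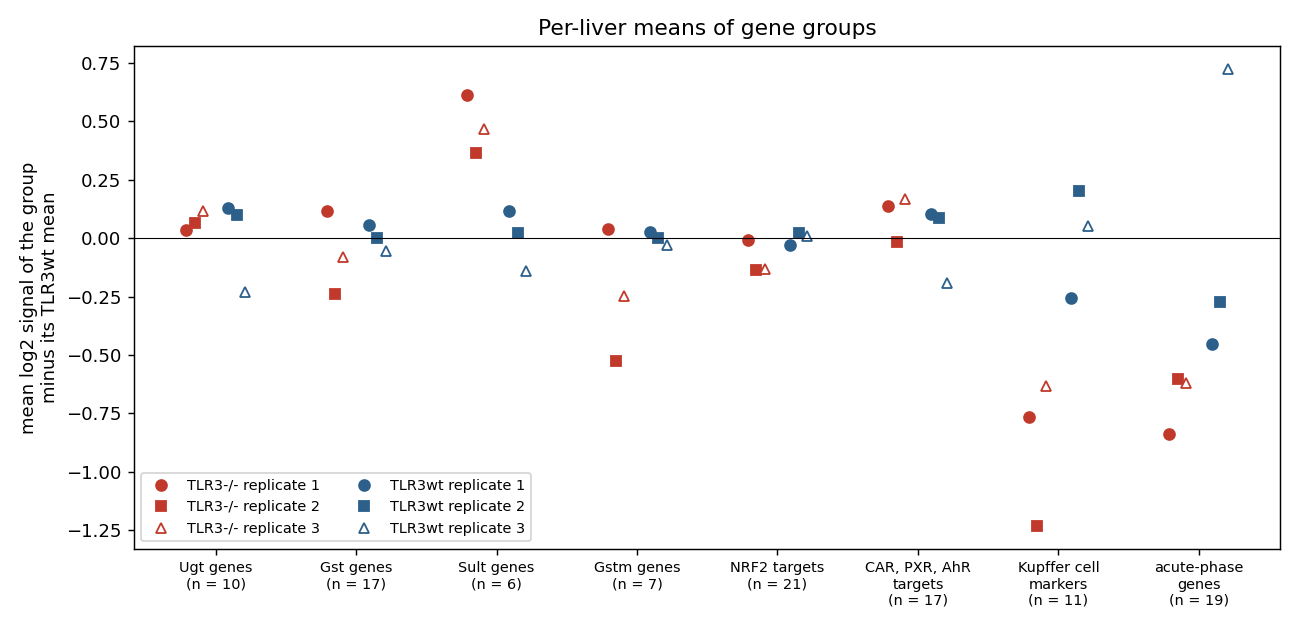
Mean log2 signal of each gene group minus its TLR3wt mean (vertical axis), 1 symbol per liver (red for TLR3-/-, blue for TLR3wt), with the number of genes below each name. The Sult averages of 0.37 to 0.61 in TLR3-/- livers lie above those of -0.14 to 0.12 in TLR3wt livers, the Gst and Ugt averages overlap, and the acute-phase average of TLR3wt replicate 3 stands at 0.73.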

How the data were processed

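The deposited log2 values are the authors' RMA signals, and the submitters' processing notes name Affymetrix Expression Console as the tool. No source used here gives what set the floor of 5 or the genome build of the array annotation. Probe sets were named through the array annotation, with symbols updated by gene identifier to the RefSeq table of GRCm38.p6, which held 99.6% of them. No coordinate comes from the array.

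Of 35557 probe sets, 18918 at 5 in every liver did not enter the test, and 16639 were fitted with limma 3.58.1 in R 4.3.3 (lmFit and eBayes, group as the only term, two-tailed, Benjamini-Hochberg adjustment, threshold 0.05). The precision is limited by 3 arrays per group. The procedure was tested on simulated data. Probe sets with several symbols entered the fit but name no gene.

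The members, lists and tests were chosen with earlier results of these data known, and the acute-phase list was added after the values were seen. Named were, in each family, the 6 genes with the smallest p and the 4 with the highest mean, every member of a subfamily where it was given whole, and 3 genes per list. Lists are described by counts and medians without a test. The alternatives were 3 filters, 2 normalisations, a variance trend, array weights, 1-symbol probe sets alone, averaged probe sets, a replicate block and leaving out each liver. Background correction could not be varied from summarised values, and the labels give no slide or scan batch.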

Additional observations from a re-analysis of the deposited data

How the results depend on the processing

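No conjugating enzyme gene passed under any alternative run except 1, Sult5a1, with probe sets above the floor on at least 3 arrays (adjusted p = 0.0254), and no gene of the 13 lists passed under any. Of 365 values of named genes under alternatives, 350 kept their direction and side of the threshold. The count of all passing probe sets, 31 (23 higher, 8 lower), was 0 with no filter (2018 at an unadjusted p under 0.05), 48 and 18 above the floor on at least 3 and on all 6 arrays, 9 after quantile normalisation, 14 after centring (8 higher, 6 lower), 1 with 1-symbol probe sets alone and 0 to 13 with 1 liver left out. With the replicate block it was 4, and the block moved no member across the threshold. Same-numbered livers deviated from their group means with correlations of 0.05, -0.01 and -0.06, so no pairing by replicate number was seen. Whether such livers shared litters or batches is not given. Members higher without overlap numbered 5 after quantile normalisation (11% of genes) or centring (10.5%) and 9 to 10 with 1 liver left out (19.5% to 24.0%). Members lower without overlap numbered 4 after quantile normalisation (9.57%) and 2 to 7 with 1 liver left out, 7 without TLR3-/- replicate 1 (11.9% of genes) and 6 without TLR3wt replicate 3 (11.3%). The ranges with 1 liver left out were 0.25 to 0.50 for the Sult median, -0.11 to 0.03 for Gst and -0.02 to 0.11 for Ugt. The second Gstm3 probe set, tried after seeing the data, left the Gst median at -0.05.

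Differences near 0 changed sign in 14 cases, and the cause was not tested. After centring, Ugt2b34 had -0.025 and Ugt2b5 -0.019, and with array weights they had -0.023 and -0.018. With 1 liver left out the ranges were -0.025 to 0.10 for Gsta3, -0.27 to 0.074 for Sult1a1, -0.011 to 0.22 for Sult1c2, -0.043 to 0.13 for Ugt2b1, -0.097 to 0.060 for Ugt2b34, -0.0054 to 0.078 for Ugt2b36 and -0.091 to 0.082 for Ugt2b5.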
